A study of Mus musculus with 17 samples.

Results

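The pairs described here are multi-way contacts at the mouse alpha-globin locus in which a captured viewpoint, one fragment of the alpha-globin enhancer cluster and one fragment of the adult alpha-globin gene region were ligated on a single DNA molecule. A pair was taken when one NlaIII fragment had its midpoint in the cluster, chr11:32141000-32172000 (mm9), and the other in the gene region, chr11:32181000-32200000 (mm9). Fragments within 1 kb of the centre of their viewpoint were left out. The 2 viewpoints were the R2 enhancer, centred at position 32151017 inside the cluster, and a CTCF site centred at position 32137490, 3.51 kb outside the upstream end of the cluster. Of the 963910 fragment pairs listed for both viewpoints, 5749 joined the cluster with the genes: 4300 of 514959 from R2 and 1449 of 448951 from CTCF, with 575 listed from both. They held 23198 of 3486870 counts.

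The assay was Tri-C, in which cross-linked chromatin is cut with NlaIII, ligated, and enriched for molecules that hold a chosen viewpoint fragment, so that the other fragments of one molecule report what met at one allele. The erythroid group was Ter-119+ cells taken from the spleen of C57BL/6 females after phenylhydrazine, which causes anaemia and fills the spleen with red cell precursors. Per the labels the mice had 3 doses, 12 hours apart, and were killed after 5 days. The comparison group was the mouse embryonic stem (ES) cell line E14 of strain 129/Ola. The alpha-globin genes are active in the first and inactive in the second. The 17 libraries (10 erythroid, 7 ES) came from 3 biological replicates of each cell type, each with 2 to 4 technical replicates. The latter were summed, so n = 3 per group throughout. Cell type, mouse strain and source (spleen cells of treated animals or a cultured line) cannot be told apart. Nothing in the labels ties a biological replicate to one animal or one culture. Where replicates were not separate animals or cultures, the spread behind each p-value may be technical.

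Alpha-globin is one of the chains of haemoglobin. In mice its adult form comes from a pair of nearly identical genes, Hba-a1 and Hba-a2, and the embryonic form, zeta-globin, from Hba-x. Their transcription in red cell precursors depends on an upstream cluster of enhancers named R1, R2, R3, Rm and R4, most of which lie in introns of the neighbouring gene Nprl3. R1 and R2 are known as the strong elements of the cluster and R3, Rm and R4 as weaker ones. CTCF is a DNA-binding protein that delimits chromatin loops, and its sites flank the locus on either side.

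Part of the gene ends of these pairs lies on copied sequence. The promoters of both copies are shown here because their likeness limits what can be said of either gene alone. The 250 bases upstream of each start, from RefSeq (GRCm38.p6), are Hba-a1 at chr11:32283422-32283671 and Hba-a2 at chr11:32296242-32296491, both on the plus strand. Capitals mark TGATAA, a form of the site of GATA factors, CCAAT, and TATAA of the TATA box:
Hba-a1: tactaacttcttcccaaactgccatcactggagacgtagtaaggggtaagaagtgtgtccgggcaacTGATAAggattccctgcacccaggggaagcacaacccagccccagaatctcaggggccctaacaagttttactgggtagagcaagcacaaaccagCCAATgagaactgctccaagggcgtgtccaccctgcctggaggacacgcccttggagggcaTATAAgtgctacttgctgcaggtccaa
Hba-a2: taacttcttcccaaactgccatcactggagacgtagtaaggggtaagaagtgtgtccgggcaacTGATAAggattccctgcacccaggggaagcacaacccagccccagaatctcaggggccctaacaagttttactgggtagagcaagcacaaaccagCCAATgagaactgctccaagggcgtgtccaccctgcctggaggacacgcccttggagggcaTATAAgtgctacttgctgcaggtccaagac
Shifted by 3 bases against each other, the stretches were identical at 247 of 247 bases. TGATAA began 183 bases before the start in Hba-a1 and 186 in Hba-a2, CCAAT 88 and 91 bases before it, and TATAA 27 and 30 bases before it. Among 32851 promoters, searched on both strands over the same length, TGATAA was found in 7.94%, CCAAT in 33.8% and TATAA in 22.8%. These are matches of letters only. No NlaIII site (CATG) was found in either stretch.

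From R2, an average of 340974 ± 111868 counts per erythroid replicate and 261361 ± 151856 per ES replicate stood behind these values (SD, n = 3). From CTCF the totals were 330324 ± 112056 and 229631 ± 134747. The enhancer-gene pairs themselves were thinly covered: 13328 erythroid and 4831 ES counts from R2, and 3362 and 1677 from CTCF. From R2, 3596 of the 4300 pairs were seen in erythroid cells, 1261 in ES cells and 557 in both, and the highest count of one pair was 36. From CTCF, 1053 of 1449 pairs were seen in erythroid cells, 462 in ES cells and 66 in both. Single fragment pairs were therefore not compared, and counts were summed over stretches of the locus. In the first technical replicate of each erythroid replicate, a listed enhancer-gene pair held 1.31 to 1.52 counts on average from R2, against 2.96 to 3.97 in the other erythroid libraries and 3.21 to 3.85 in the ES libraries. Whether repeated reads of one molecule were removed alike in all libraries is unknown here.

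Seen from R2, the enhancer cluster and the adult genes were found together at a higher rate in the erythroid group than in the ES group. Per 1000 contact pairs of the whole table, the 3 erythroid replicates had 13.5, 12.5 and 13.1 enhancer-gene pairs and the 3 ES replicates had 6.17, 6.32 and 6.03. The groups did not overlap, and the spread within each was small beside the gap between them. The means were 13.02 ± 0.50 and 6.18 ± 0.15, a ratio of 2.11 (SD, n = 3; two-sided exact permutation test, p = 0.1, which is the lowest p 3 against 3 can give). When the window of 150 kb on either side of R2 was split into 7 zones, and all 28 pairs of zones were tested together, the enhancer-gene pair rose by 1.08 on the log2 scale (SE 0.13, edgeR adjusted p = 0.0004). It was the 1 zone pair of 28 that rose past the threshold (3.57%), while 18 fell (64.3%). Pairs within the gene region were also higher in every erythroid replicate than in any ES replicate, at 0.82 (SE 0.32, edgeR adjusted p = 0.058). So were pairs of the gene region with the downstream flank, at 0.24 (SE 0.12, edgeR adjusted p = 0.104). Against the table total, pairs of the cluster with the upstream flank changed by -2.56 (SE 0.26) and with the upstream CTCF region by -1.77 (SE 0.18). Its pairs with the Hba-x region were level between the groups, at -0.05 (SE 0.14), and did not pass the test.

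The size of this rise depended on the total it was set against. From R2, a mean of 117057 of 340974 erythroid counts and 174229 of 261361 ES counts had both fragments on chromosome 11. The median change over all 28 zone pairs was -1.27 on the log2 scale with the table total, and -0.25 with the total of the 150 kb window. The enhancer-gene pair then had a change of 2.14 with the window total, 2.20 with the chromosome 11 total, 2.58 with TMM factors and 2.44 in DESeq2. It had the highest value of the 28 zone pairs under all 5 scalings, but 7 to 9 zone pairs rose and 9 to 11 fell under the other 4. Per 1000 pairs with both fragments on chromosome 11, the erythroid replicates had 41.3 ± 8.68 enhancer-gene pairs and the ES replicates 9.001 ± 0.77 (SD, n = 3; exact permutation p = 0.1).

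**Figure D1:**
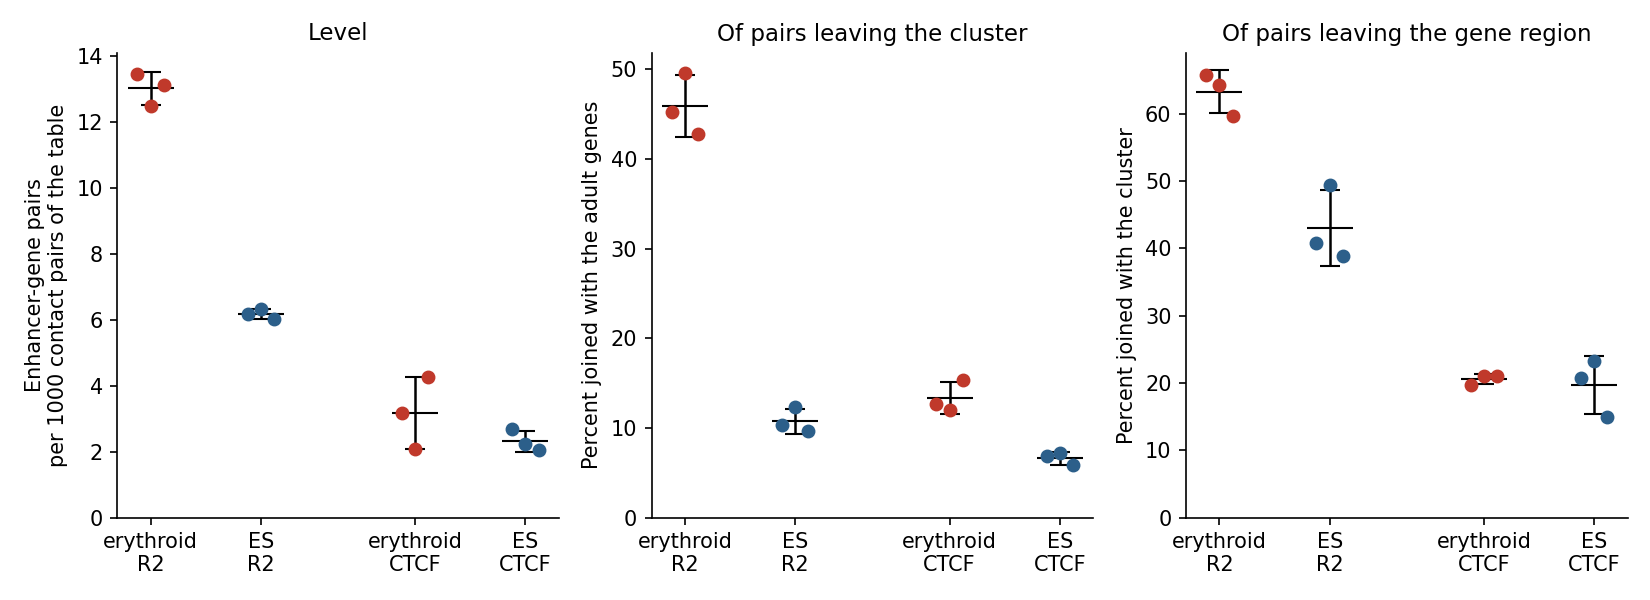
Enhancer-gene pairs per 1000 contact pairs of the table (left), their percent of all pairs that join the cluster with another place in the 150 kb window (middle), and their percent of all pairs that join the gene region with another place in the window (right). Points are the 3 biological replicates of each cell type and viewpoint, horizontal lines the means and bars 1 SD. From R2 the erythroid points lie above the ES points in each panel (13.02 against 6.18 on the left), and from CTCF they do so in the middle panel.

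Shares of pairs do not depend on the table total. Of R2 pairs that joined the cluster with another place in the window, 45.2%, 49.6% and 42.8% ended in the adult gene region in the erythroid replicates, against 10.3%, 12.3% and 9.66% in the ES replicates. The groups lay far apart, at 45.9% ± 3.48 and 10.7% ± 1.38 (SD, n = 3; exact permutation p = 0.1). In ES cells the upstream flank took 36.9% ± 2.46 of these pairs and the upstream CTCF region 20.3% ± 1.80, and in erythroid cells these zones took 12.6% ± 2.02 and 12.0% ± 1.13 (SD, n = 3). The Hba-x region, which lies between the cluster and the adult genes, took 16.6% ± 0.66 in erythroid and 8.59% ± 1.25 in ES cells.

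From the side of the genes the shares were closer. Of R2 pairs that joined the adult genes with another place in the window, 65.8%, 64.3% and 59.7% ended in the cluster in the erythroid replicates, and 40.9%, 49.4% and 38.9% in the ES replicates. The groups did not overlap, with means of 63.3% ± 3.19 and 43.04% ± 5.58 (SD, n = 3; exact permutation p = 0.1). Among zones outside the gene region, the cluster was the leading partner of the genes in R2 pairs of either cell type. Pairs within the gene region are not part of these shares. Shares of the upstream flank from R2 were 6.90% ± 1.16 (erythroid) and 18.0% ± 4.25 (ES), and those of the downstream flank 14.8% ± 0.96 and 17.9% ± 1.93. The R2 viewpoint itself lies inside the cluster. From CTCF the cluster took 20.6% (erythroid) and 19.7% (ES), below the upstream flank at 23.8% and 29.5%.

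Within the cluster, the rise of gene-joined pairs was uneven. The cluster was cut into 11 segments at 3 kb windows placed around R1, R2, R3, Rm and R4 by the usual names of these elements, with no mm9 annotation to check them. Gene-joined pairs from R2 were counted in each. Of the 11 segments, 7 rose and 0 fell. The background over all 63 segments of the window was 12.7% risen and 1.59% fallen, and the median change was 1.26 over the cluster segments and -0.53 over all segments.

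R1, one of the strong enhancers, rose from 0.74 ± 0.28 gene-joined pairs per 1000 in ES cells to 2.62 ± 0.30 in erythroid cells (SD, n = 3). The erythroid replicates had 2.63, 2.91 and 2.31, and the ES replicates 0.50, 1.04 and 0.68, so the lowest erythroid value lay well above the highest ES value. The log2 change was 1.83 (SE 0.21, edgeR adjusted p = 1.5e-07). The 2 kb between R1 and R2 rose by a like amount, from 0.69, 0.64 and 0.74 in the ES replicates to 2.38, 2.32 and 2.33 in the erythroid replicates, a change of 1.77 (SE 0.17, adjusted p = 1.2e-08). Per kb, this gap held the highest erythroid level among segments that lie wholly outside the stretch left out at R2, 1.17 gene-joined pairs per 1000, followed by R1 with 0.87. The strips on either side of R2 that remained countable, 1 kb in all, rose by 1.26 (SE 0.26, adjusted p = 0.0011), from 0.67, 0.33 and 0.56 to 1.26, 1.19 and 1.30.

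R3 changed less. The erythroid replicates had 1.54, 1.17 and 1.69 gene-joined pairs per 1000 at R3 and the ES replicates 0.91, 1.01 and 1.08. The groups did not overlap, but the log2 change of 0.56 (SE 0.20) did not pass the test (edgeR adjusted p = 0.063). It passed with the window total (1.58, adjusted p = 0.0002), with the chromosome 11 total (1.64, adjusted p = 1.5e-06), with each pair counted once per library (0.57, adjusted p = 0.0386) and without erythroid replicate 2 (0.69, adjusted p = 0.0177). It did not with TMM factors or in DESeq2 (adjusted p = 0.242 and 0.414). The 2 kb between R2 and R3 had 1.15, 0.997 and 1.38 in erythroid and 0.98, 0.82 and 1.003 in ES replicates, which overlap. Its change was 0.33 (SE 0.22, adjusted p = 0.484). The 6 kb between R3 and Rm rose by 0.59 (SE 0.18, adjusted p = 0.0272), a call that ended with TMM factors (0.53, adjusted p = 0.242), in DESeq2 (0.43, adjusted p = 0.412) and when any 1 of the 6 replicates other than ES replicate 2 was left out (adjusted p 0.052 to 0.127).

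The elements farthest from R2 on the gene side had few counts, and the gap between Rm and R4 had the largest ratio among the 11 segments. Rm rose from 0.39, 0.31 and 0.15 gene-joined pairs per 1000 in the ES replicates to 0.998, 0.89 and 0.73 in the erythroid replicates, a change of 1.61 (SE 0.35, edgeR adjusted p = 0.0015). The 1 kb between Rm and R4 rose from 0.060, 0 and 0.047 to 0.53, 0.39 and 0.38, a change of 3.47 (SE 0.72, adjusted p = 0.0011). R4 rose from 0.14, 0.13 and 0.023 to 0.52, 0.31 and 0.33, a change of 1.97 (SE 0.62, adjusted p = 0.0285). The groups did not overlap at any of these. The call at R4 ended with TMM factors (1.87, adjusted p = 0.0705) and, among single replicates left out, when any other than ES replicate 1 was left out (adjusted p 0.052 to 0.233). The R4 window was thinly sampled, with no fragment midpoint 18 to 19 kb from the R2 centre. Its erythroid replicates had 138, 89 and 157 counts. The 1 fragment at 17 to 18 kb held 27, 28 and 47 of them, and the 1 fragment at 19 to 20 kb 31, 21 and 34. The other counts lay at the edge next to the gap between Rm and R4.

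The outer ends of the cluster did not pass the test. Between the cluster start and R1 the erythroid replicates had 0.82, 0.51 and 0.80 gene-joined pairs per 1000 and the ES replicates 0.71, 0.86 and 0.65, with a change of -0.06 (SE 0.28). This sign turned to 1.03 (adjusted p = 0.0199) with the chromosome 11 total. From R4 to the cluster end the change was 1.11 (SE 0.73, adjusted p = 0.484). It passed with the chromosome 11 total (2.19, adjusted p = 0.0146) and with each pair counted once per library (1.47, adjusted p = 0.0292) or per biological replicate (1.40, adjusted p = 0.0406). When the total of the enhancer-gene pairs was used as library size, so that only the distribution within the cluster was compared, R1, the gap between R1 and R2 and the gap between Rm and R4 still rose, by 0.76, 0.69 and 2.41. The segments from the cluster start to R1 and between R2 and R3 fell by 1.14 and 0.75 on the log2 scale. Pairs upstream of the R2 centre made up 48.5% ± 2.82 of all enhancer-gene pairs in the erythroid group and 37.5% ± 4.44 in the ES group (SD, n = 3; exact permutation p = 0.1).

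**Figure D2:**
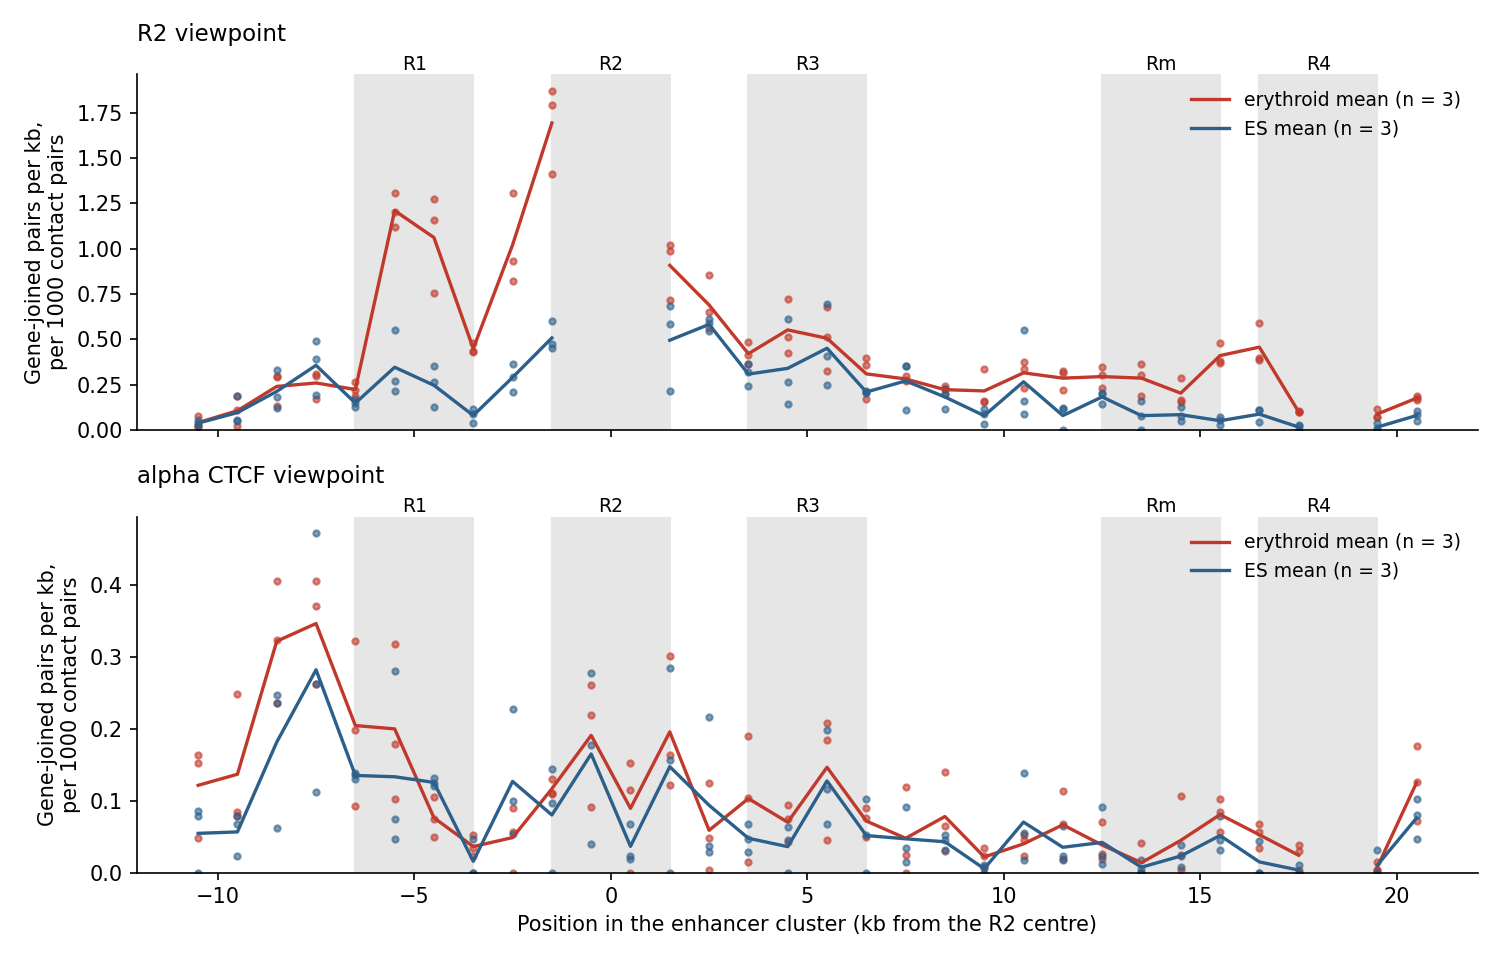
Pairs that join each 1 kb of the enhancer cluster with the adult gene region, per 1000 contact pairs, against the distance from the R2 centre, from the R2 viewpoint (top) and the CTCF viewpoint (bottom, on its own vertical scale). Points are biological replicates, lines the means of 3, and grey bands the 3 kb element windows; lines break where no fragment midpoint was counted, including the stretch left out at R2. From R2 the red erythroid line stands above the blue ES line at R1 and beside R2, and from CTCF the points of both cell types overlap along most of the cluster.

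The single fragments with the most erythroid counts lay where the segments were high. From R2 they were chr11:32149714-32149922 (mm9, 209 bases), at -1.199 kb from the R2 centre, with 436 erythroid and 104 ES counts, and chr11:32149197-32149654 (mm9, 458 bases) with 425 and 52 counts. The third, chr11:32145844-32145960 (mm9, 117 bases) in the R1 window, had 351 erythroid counts and 47 ES counts. Since they were chosen by their erythroid counts, the difference between cell types at these fragments is a description only. At the first, the replicates had 0.41, 0.48 and 0.40 gene-joined pairs per 1000 in erythroid and 0.132, 0.129 and 0.136 in ES cells. The third varied more among ES replicates, from 0.019 to 0.194, and ES replicate 2 was the high one.

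Each enhancer was then paired with each gene copy, and all 1005 segment pairs of the window with at least 30 counts were tested together. Of the 55 pairs of a cluster segment with a gene segment, 50 had enough counts; 13 rose and 0 fell. Over the whole window 2.19% of segment pairs rose and 31.5% fell. The median change was 1.17 over the tested enhancer-gene segment pairs and -1.87 over all segment pairs. With the window total, 29 of the 50 rose, and with TMM factors 34, while 5.77% and 8.96% of all segment pairs did.

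R1 rose with both gene copies. R1 with Hba-a1 had 151, 158 and 287 counts in the erythroid replicates and 36, 24 and 50 in the ES replicates. Per 1000 contact pairs these are 0.58 ± 0.03 and 0.16 ± 0.08 (SD, n = 3), a log2 change of 1.83 (SE 0.53, edgeR adjusted p = 0.0063). R1 with Hba-a2 had 144, 175 and 211 counts against 47, 27 and 33, a change of 1.82 (SE 0.54, adjusted p = 0.0072). Both calls ended without ES replicate 1, the deepest ES replicate, with changes of 1.496 and 1.61 and adjusted p of 0.0611 and 0.0502. R1 with the 10 kb between the gene copies rose by a like amount, 1.90 (SE 0.49, adjusted p = 0.0019). The gap between R1 and R2 rose with Hba-a1 (1.71), with Hba-a2 (2.41) and with the stretch between them (1.68), and the strips beside R2 rose with Hba-a1 (1.55, SE 0.62, adjusted p = 0.0427). The strips did not pass with Hba-a2, at 45, 47 and 176 erythroid and 59, 4 and 18 ES counts (1.46, SE 0.66, adjusted p = 0.0794), nor with the stretch between the copies (0.90, SE 0.49, adjusted p = 0.146).

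R3 and Rm with the gene copies did not pass the test. R3 with Hba-a1 had 123, 49 and 221 erythroid and 86, 15 and 69 ES counts, a change of 0.80 (SE 0.55, edgeR adjusted p = 0.257). R3 with Hba-a2 had a change of 0.76 (SE 0.57, adjusted p = 0.308). Rm with Hba-a1 had 40, 70 and 92 counts against 39, 17 and 0, a change of 1.48 (SE 0.75, adjusted p = 0.115), and Rm with Hba-a2 a change of 1.16 (SE 0.77, adjusted p = 0.243). All 4 of these pairs passed with the window total, with changes of 1.69, 1.66, 2.66 and 2.24. Rm with the stretch between the gene copies rose by 1.84 (SE 0.57, adjusted p = 0.0103).

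The window around R4, the element closest to the genes, rose with both copies on low counts. The middle of this window, 18 to 19 kb from the R2 centre, held no counted fragment midpoint. R4 with Hba-a1 had 54, 15 and 33 erythroid counts and 8, 0 and 0 ES counts, a change of 3.72 (SE 1.22, edgeR adjusted p = 0.015). R4 with Hba-a2 had 36, 18 and 38 counts against 5, 0 and 3, a change of 3.26 (SE 1.27, adjusted p = 0.0397). The ratio of their summed levels was 9.77 (95% counting interval 4.78 to 23.2) and 8.81 (4.29 to 21.03). These intervals cover counting error only and not the spread between replicates. Both pairs passed the count filter almost wholly on erythroid counts, at 102 against 8 and 92 against 8. Without erythroid replicate 1 the changes were 2.99 and 2.91 with adjusted p of 0.221 and 0.175. The call with Hba-a1 also ended without erythroid replicate 3 (adjusted p = 0.0532) or ES replicate 2 (0.0589), and the call with Hba-a2 ended without any single replicate (0.0538 to 0.175), with a minimum of 10 counts (0.0518) or no count filter (0.0732), and without the first erythroid technical replicates (0.0516). Without ES replicate 1, R4 with Hba-a1 was at 0 in both remaining ES replicates; the fitted change was then 7.90, which depends on the prior count and is no measure of size.

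Besides the pairs of a named element with a gene copy, the 3 called segment pairs with the largest changes all had one end in the 1 kb between Rm and R4. With Hba-a1 this gap had 26, 25 and 39 erythroid counts and 2, 0 and 0 ES counts, and the ratio of summed levels was 34.5 (95% counting interval 9.28 to 289.2; edgeR adjusted p = 0.0093). With Hba-a2 it had 39, 16 and 27 counts against 4, 0 and 0, a ratio of 15.7 (5.91 to 59.04; adjusted p = 0.0213), and this call ended without erythroid replicate 1 or 3 or ES replicate 3, with adjusted p of 0.174, 0.0531 and 0.061. All ES counts of these 2 pairs were in ES replicate 1; without it the fitted changes moved from 5.11 and 4.27 to 7.62 and 7.58, which likewise depend on the prior count. With the stretch between the gene copies it rose by 2.90 (SE 0.78, adjusted p = 0.0029), from 17, 0 and 10 counts to 64, 63 and 110. ES replicate 2, the shallowest replicate at 139337 counts, had a count of 0 in each of these. The intervals cover counting error only, and repeated reads of one molecule would make them too narrow. The 3 pairs were chosen because they passed the test, did not overlap and had the largest changes. Their ratios and changes may therefore be too large, and the intervals do not allow for this choice. The pairs with Hba-a1 and Hba-a2 passed the count filter almost wholly on erythroid counts, at 90 against 2 and 82 against 4.

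**Figure D3:**
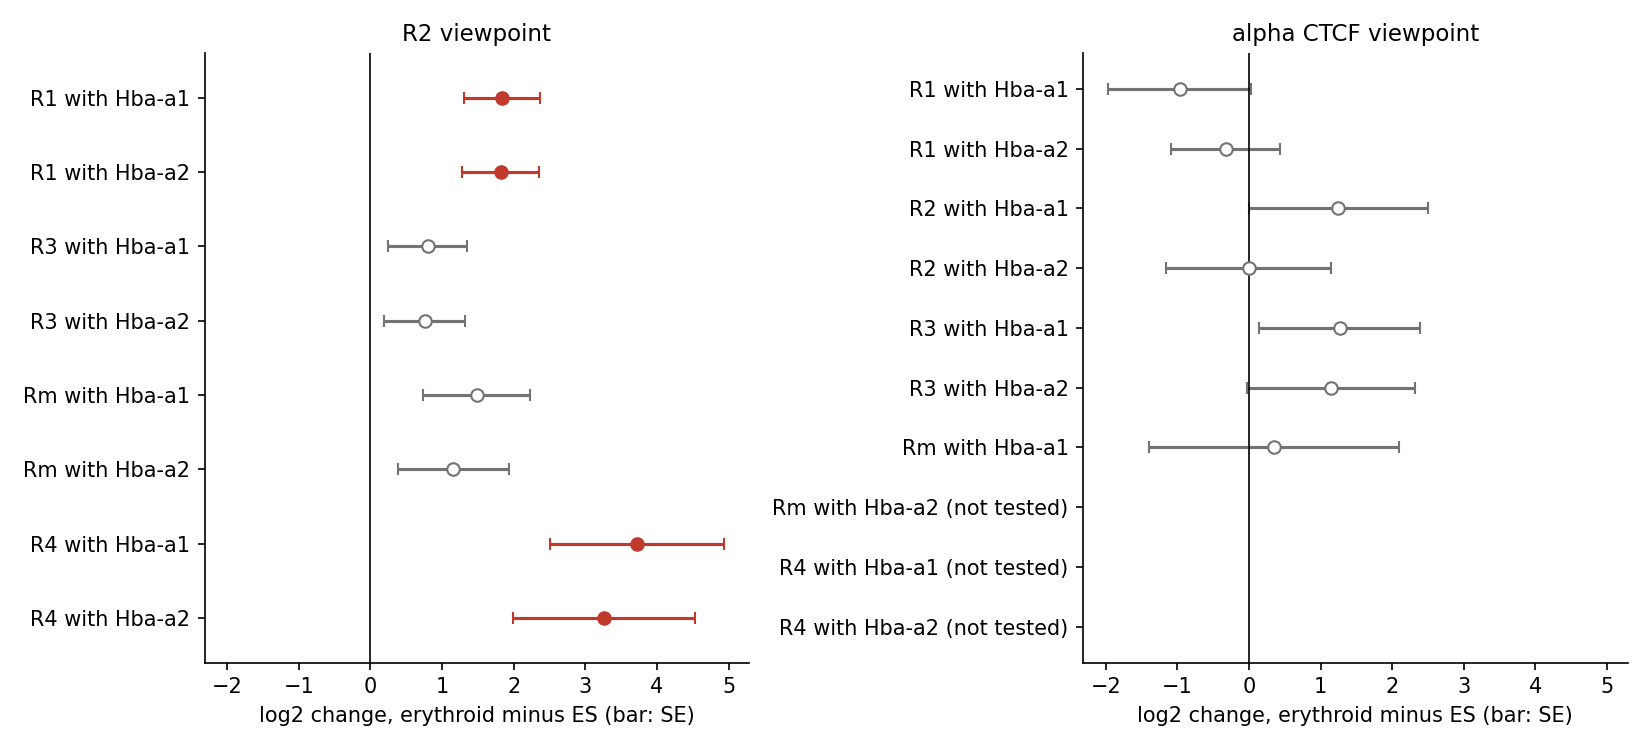
Log2 change, erythroid minus ES, of the pairs of each enhancer window with the Hba-a1 and Hba-a2 windows from the R2 viewpoint (left) and the CTCF viewpoint (right); R2 itself is shown from CTCF only. Bars are 1 SE of the edgeR fit, filled red points passed an adjusted p of 0.05 and open grey points did not. R1 and R4 passed with both copies from R2 (1.83, 1.82, 3.72 and 3.26), and no tested pair passed from CTCF. R4 had 8 ES counts with each copy and passed the count filter almost wholly on erythroid counts.

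Along the gene region, the copies themselves were joined with the cluster at a higher rate per kb than the stretch between them when seen from R2. From R2 in erythroid cells, the Hba-a1 window had 1.004, 0.89 and 1.09 enhancer-joined pairs per 1000 and kb, the Hba-a2 window 0.90, 0.83 and 0.96, and the 10 kb between them 0.63, 0.61 and 0.60. Both copies lay above the stretch between them in each erythroid replicate. In ES cells the same windows had 0.40 ± 0.01, 0.38 ± 0.08 and 0.31 ± 0.01 (SD, n = 3). Of the enhancer-gene pairs from R2, Hba-a1 took 22.9% ± 1.86 in the erythroid group and 19.3% ± 0.97 in the ES group (exact permutation p = 0.1). Hba-a2 took 20.7% ± 1.07 and 18.5% ± 3.98 (exact permutation p = 0.4). From CTCF, Hba-a1 did not lie above the stretch between the copies, at means of 0.168 against 0.173 per 1000 and kb in erythroid cells. In ES cells these were 0.109 and 0.119. Hba-a2 had 0.200 in erythroid and 0.193 in ES cells from CTCF.

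The gene fragments with the most erythroid counts from R2 were a pair of copies. They were chr11:32183769-32184091 and chr11:32196586-32196908 (mm9), both of 323 bases, with 472 and 441 erythroid and 93 and 88 ES counts. These were chosen after their values were seen. In all, 8 of the 90 gene fragments listed from R2 had a partner of equal length 12817 bases downstream. They and their partners held 1953 and 1821 of the 13328 erythroid counts. The first copy held 51.7% of the counts of these fragments in erythroid and 46.7% in ES cells from R2, and 50.9% and 45.5% from CTCF. Copied sequence on fragments of unequal length is not part of these counts, so they may understate the copied share. Reads from copied sequence can be placed at either copy, and how the authors placed them is unknown here, so the values of one copy may hold reads of the other and their near equality is uncertain.

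**Figure D4:**
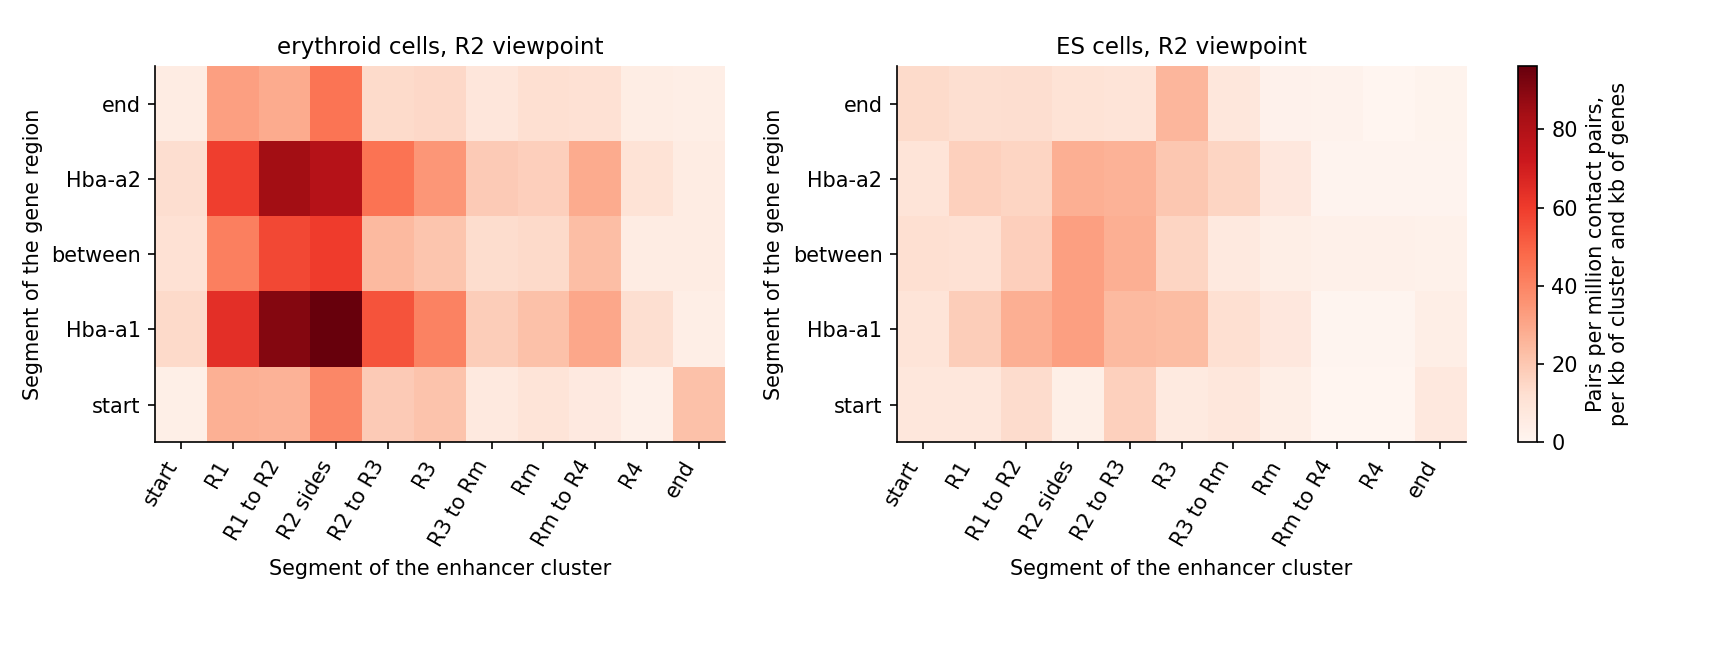
Enhancer-gene pairs from R2 by segment of the cluster (horizontal, in order along the chromosome) and of the gene region (vertical), in erythroid (left) and ES cells (right). Colour is the mean of 3 replicates in pairs per 1000000 contact pairs, per kb of cluster and kb of genes, on one scale; the R2 strips are set per the 1 kb that was counted. The darkest erythroid cells join Hba-a1 with the strips beside R2 (96.2) and with the gap between R1 and R2 (90.2), where ES cells had 32.001 and 27.6. Both segments lie next to the viewpoint, and the strips with Hba-a1 had the highest value in the ES group as well.

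Seen from the CTCF site, the same pairs did not pass the test between cell types. The erythroid replicates had 3.16, 2.07 and 4.28 enhancer-gene pairs per 1000 and the ES replicates 2.67, 2.24 and 2.06. The groups overlapped, and erythroid replicate 3 was the high one. The means were 3.17 ± 1.10 and 2.32 ± 0.32 (SD, n = 3; exact permutation p = 0.3). In the fit over 28 zone pairs the change was 0.45 (SE 0.33, edgeR adjusted p = 0.422), where 3 zone pairs rose (10.7%). Of the pairs that joined the cluster with another place in the window, 13.3% ± 1.76 ended at the genes in erythroid and 6.64% ± 0.72 in ES cells, and these groups did not overlap (exact permutation p = 0.1). Of the pairs that joined the genes, 20.6% ± 0.78 and 19.7% ± 4.29 ended in the cluster (exact permutation p = 0.8).

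By position, the CTCF viewpoint gave no calls among enhancer-gene pairs. In the profile of the cluster, 0 of 11 segments rose at an edgeR adjusted p under 0.05 (background 0% of 62, of which 1 had an unadjusted p under 0.05, outside the cluster). In the segment pairs, 29 of 55 had enough counts and 0 were called, with 1 at an unadjusted p under 0.05 (background 0.173% of 1157 risen). In DESeq2 1 was called, where 3.54% of all 1157 segment pairs rose. R1 with Hba-a1 had 7, 7 and 39 erythroid and 69, 4 and 10 ES counts, with a change of -0.97 (SE 1.001), and R1 with Hba-a2 had -0.33 (SE 0.76). R2, which can be counted from this viewpoint, had 15, 8 and 49 erythroid and 12, 5 and 2 ES counts with Hba-a1, a change of 1.25 (SE 1.25). With Hba-a2 its change was -0.003 (SE 1.15), a sign that turned under 11 alternatives. R3 had 1.27 (SE 1.12) with Hba-a1 and 1.15 (SE 1.17) with Hba-a2, and Rm 0.35 (SE 1.74) with Hba-a1. Rm with Hba-a2 (6, 0 and 13 erythroid and 4, 1 and 0 ES counts), R4 with Hba-a1 (2, 6 and 4 against 6, 0 and 0) and R4 with Hba-a2 (2, 0 and 6 against 9, 0 and 0) had too few counts to be tested. A p that misses the threshold does not show that these pairs were alike in both cell types. The most frequent cluster fragment was chr11:32140925-32141104 (mm9, 180 bases) at the cluster end nearest the viewpoint, with 128 erythroid and 45 ES counts.

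The 2 viewpoints share libraries, so the cell-type difference could be compared between them. The change of the enhancer-gene pairs from R2 exceeded that from CTCF by 0.68 on the log2 scale (SE 0.25, edgeR interaction, adjusted p = 0.0119). It was one of 22 of 28 zone pairs past the threshold, 2 of them upward, and had the highest value of the 28. The call ended without erythroid replicate 1 (0.68, adjusted p = 0.0656), without erythroid replicate 2 (0.44, 0.0779) and without ES replicate 1 (0.57, 0.0675), and with each pair counted once per biological replicate (0.43, 0.0946). With the window total the difference was 1.58 and with the chromosome 11 total 1.74. By segment, 0 of 63 differences passed (7 at an unadjusted p under 0.05), and the values were 1.78 (SE 0.61, adjusted p = 0.242) at R1 and 1.73 (SE 0.65, adjusted p = 0.261) between R1 and R2.

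Within each cell type, R2 pairs were more often enhancer-gene pairs than CTCF pairs of the same replicate. The gene share of pairs leaving the cluster was higher from R2 by 32.6, 37.7 and 27.5 percentage points in the erythroid replicates and by 3.38, 5.10 and 3.83 in the ES replicates (exact sign-flip p = 0.25 in each, the smallest that 3 pairs allow). The R2 viewpoint lies inside the cluster and the CTCF viewpoint outside it, so distance from the viewpoint differs between them.

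The pairs were last set against an expected count, which takes the contact frequency of both 2 kb bins and their separation from the same replicate. From R2, enhancer-gene pairs were observed above expectation by 0.60, 0.65 and 0.74 on the log2 scale in the erythroid replicates and by 0.23, 0.46 and 0.006 in the ES replicates. The groups did not overlap, and the difference was 0.42 (SE 0.10, edgeR adjusted p = 0.003). In this fit 9 of 28 zone pairs rose and 9 fell, so a call was common. When bin pairs inside the gene region were left out of the fit, the ES replicates came to 0.39, 0.61 and 0.17, and the difference of 0.16 (SE 0.09, adjusted p = 0.116) no longer passed. From CTCF the erythroid replicates were at 0.46, 0.59 and 0.53 and the ES replicates at -0.22, -0.07 and -0.60. This difference of 0.81 (SE 0.16, adjusted p = 0.0015) was 0.73 (adjusted p = 0.0149) with those bin pairs left out. In the CTCF fit with all bin pairs, 3 of 28 zone pairs rose and 5 fell. Relative to the contact frequency of each side, enhancer-gene pairs were therefore higher in erythroid cells from CTCF, where their level did not pass the test.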

How the data were processed

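Tri-C contacts were measured in 17 libraries from 3 erythroid and 3 ES biological replicates, and technical replicates were summed. The deposited values are whole-number counts per pair of NlaIII fragments and library, as the files show, 1 table per viewpoint; 0 columns had no sample. The submitters' processing notes list Trim Galore, Bowtie and the mm9 build without versions or roles; how duplicates were removed is unknown here. No mm9 genome or annotation was used, so elements are windows placed by their customary distances from Hba-x; gene names and promoters came from GRCm38.p6 tables.

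Counts were summed by zone pair, by segment pair (minimum 30 counts; 4 kb bins outside the cluster and the genes) and, for gene-joined pairs, by segment. Each viewpoint was tested with edgeR 4.0.16 (quasi-likelihood, R 4.3.3), with library sizes set to the table totals, without normalization factors, and with Benjamini-Hochberg adjustment over all features of the window, threshold 0.05. Standard errors were derived from the log2 change and its F statistic. Expected counts came from 200 rounds of iterative scaling. Shares were compared with exact permutation tests (Python 3.11.15, scipy 1.17.1). DESeq2 1.42.0 and other totals, filters, leaving out replicates and counting each pair once were alternatives. Fits were also run on simulated data without the repeated counts per fragment pair seen here. No result here rests on those runs.

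Every pair of an enhancer window with a gene copy was named whatever its value (R2 itself from CTCF only, where it can be counted), plus up to 3 called segment pairs per direction without overlap of replicates and 3 cluster fragments per viewpoint by erythroid counts. The regions, segments and tests were chosen with earlier results of these data known. Same-numbered replicates correlated between -0.058 and 0.028 across segment pairs, so the numbers were not taken to pair samples.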

Additional observations from a re-analysis of the deposited data

Results flagged for a closer look

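The erythroid minus ES change of the enhancer-gene pairs differed between the viewpoints: the R2 change exceeded the CTCF change by 0.68 on the log2 scale (SE 0.25, edgeR interaction with the biological sample as a block, adjusted p = 0.0119 over 28 zone pairs). This difference was tested itself, and it lost its call under 5 alternatives (adjusted p up to 0.399). Levels and counts per pair in 12 sets of libraries held no library that stood apart by Dixon's criterion. This criterion looks for a single library, so it is not suited to flag the 3 first erythroid technical replicates, which were low together. They held 1.31 to 1.52 counts per enhancer-gene pair from R2, against 2.96 to 3.97 in the other erythroid libraries.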

How the results depend on the processing

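From R2, the zone pair rose under all 17 alternatives (0.83 to 2.58), and both shares kept their direction under all 14 (12.7 to 27.6 and 15.9 to 36.7 percentage points). The viewpoint difference lost its call with each pair counted once per biological replicate (0.43), with first technical replicates alone (0.34), and without erythroid replicate 1 or 2 or ES replicate 1; leaving out replicates gave 0.44 to 0.92. Observed over expected from R2 fell below the threshold with gene-gene bin pairs left out (0.16). Called segment pairs from R2, 13 in the main setting, came to 29 (window total), 28 (chromosome 11 total), 34 (TMM), 33 (DESeq2), 6 (first technical replicates alone) and 8 to 11 with a replicate left out, erythroid replicate 1 giving 8. Over all segment pairs from R2, 5.77%, 5.37%, 8.96% and 6.77% rose under these scalings, in the order window total, chromosome 11 total, TMM and DESeq2. Called cluster segments were 11 with the chromosome 11 total, where 27.0% of all 63 segments rose. They were 3 with first technical replicates alone, and 5 to 6 with a replicate left out. Shares over all segments are not given here for those settings. From CTCF, 1 segment pair was called in DESeq2 and with pairs counted once per library or per biological replicate. In DESeq2, 3.54% of all segment pairs from CTCF rose. The viewpoint difference by segment had 2 calls with the window total, 2 with the chromosome 11 total and 0 to 2 with a replicate left out, against 0 in the main setting. The cluster share of gene-joined pairs from CTCF, 0.94 percentage points higher in erythroid cells, turned to -0.23 with pairs counted once per library or per biological replicate, and lay between -1.42 and 2.78 with a replicate left out.

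Among named pairs from CTCF, none past the threshold, signs turned for R1 with Hba-a1 (0.56 with first technical replicates alone; -1.77 to 0.071 with a replicate left out), R1 with Hba-a2 (0.44 with first technical replicates alone), Rm with Hba-a1 (-0.17 to 1.54 with a replicate left out) and R2 with Hba-a2. The last was 0.15 with the window total, 0.28 with TMM, 0.26 in DESeq2, 0.53 and 0.50 with pairs counted once per library or biological replicate, 0.90 with first technical replicates alone, 0.29 with the replicate block, and -0.59 to 0.74 with a replicate left out.

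With the replicate number as a block, the replicate block, the zone pair was 1.08 from R2 (adjusted p = 0.0028) and 0.40 from CTCF. From R2, 11 segment pairs and 8 cluster segments were called, and shares over all segments are not given here for this setting. R3 gained its call with the replicate block (0.54, adjusted p = 0.0341) and R4 with Hba-a2 lost it (3.51, adjusted p = 0.0898). The numbers are not known to pair samples. Causes of these changes were not tested. Counting each pair once, and leaving out the first erythroid technical replicates, were added after the data were seen. Depth left 29 of 55 segment pairs from CTCF, and 50 of 55 from R2, with at least 30 counts.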

Other observations

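The gap between Rm and R4 and the R1 window stood apart from the R3 window within the same cluster: in erythroid cells they took 3.32% ± 0.55, 20.2% ± 2.94 and 11.2% ± 1.75 of the enhancer-gene pairs from R2, and in ES cells 0.59% ± 0.52, 11.9% ± 4.22 and 16.2% ± 1.57 (SD, n = 3). These shares sum over the cluster, so a gain in one segment lowers the others.

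From CTCF, the stretch of the cluster nearest the viewpoint, from the cluster start to R1, took 32.9% ± 6.52 of the enhancer-gene pairs in erythroid and 26.3% ± 6.79 in ES cells, against 5.43% ± 1.13 and 11.9% ± 1.499 from R2 (SD, n = 3). Its gene-joined pairs from CTCF were at 0.88, 0.83 and 1.32 per 1000 in the erythroid and 0.53, 0.57 and 0.69 in the ES replicates, which do not overlap, and the change of 0.76 (SE 0.50) did not pass the test (edgeR adjusted p = 0.97).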
